A study of Mus musculus with 5 samples.

Results

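The 10 genes described here encode proteins that store iron, break down heme and move iron across membranes, together with the iron hormone hepcidin. They are Fth1, Ftl1, Ncoa4, Hmox1, Blvra, Blvrb, Tfrc, Slc11a2, Slc40a1 and Hamp, and 10 of 10 were present among the 10664 genes of the authors' deposited table. They were picked by symbol with the values of that comparison already known, so their fold changes and calls are given as a description and support nothing beyond themselves. The knockout mice carried K14Cre-ER with Nrf2 flox/flox (2 cKO samples, numbered 2 and 3), and the littermates carried K14Cre-ER with Nrf2 +/+ (3 WT samples, numbered 1 to 3). Both genotypes thus share the K14Cre-ER transgene, which places an inducible Cre under a keratin 14 promoter active in basal keratinocytes. The sources used here do not state how Cre was induced, which part of Nrf2 is flanked by loxP sites, or the age and sex of the mice. In both genotypes the samples were live keratinocytes sorted 5 days after wounding as positive for CD49f and negative for a panel of blood lineage markers.

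The gene Nfe2l2 encodes Nrf2, which is stabilised under oxidative stress and switches on genes that carry antioxidant response elements. Both ferritin chains, heme oxygenase, biliverdin reductase B and ferroportin are known as its targets in mouse or human cells. Free iron catalyses the formation of hydroxyl radicals, so cells hold it inside ferritin shells and release it by a form of autophagy that uses Ncoa4. Wounded skin also receives heme from spilled red cells, which heme oxygenase opens to iron, carbon monoxide and biliverdin. Much of the control of this pathway acts on the mRNA and not on the promoter. Iron regulatory proteins bind a hairpin, the iron response element. In the 5′ UTR of ferritin and ferroportin mRNA the bound hairpin blocks translation, and in the 3′ UTR of transferrin receptor mRNA it protects the transcript from decay. Hepcidin, made mainly by hepatocytes, binds ferroportin at the cell surface and stops iron export.

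The hairpins are shown because, where such an element works, it bears on what an mRNA level can report. The search asked for a C, 5 bases, the loop CAGTGN with a last base other than G, and 5 bases pairing with the first 5, closed by a lower stem with at least 4 of 5 pairs. G-T pairs were allowed. Elements were found on the sense strand of 4 of the 10 genes in GENCODE vM21 transcripts, which use the mm10 build of the deposited data. The capitals mark the unpaired C and the loop. The first site lies at chr19:9982733-9982759 (plus strand), the next at chr7:45459780-45459806 (minus strand) and the Slc40a1 site at chr1:45925466-45925492 (minus strand), each in a 5′ UTR. The others lie in the 3′ UTR of Tfrc on the plus strand of chromosome 16, from chr16:32631220-32631246 to chr16:32631711-32631737.
Fth1: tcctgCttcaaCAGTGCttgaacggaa
Ftl1: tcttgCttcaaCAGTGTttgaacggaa
Slc40a1: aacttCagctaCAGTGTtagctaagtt
Tfrc site 1: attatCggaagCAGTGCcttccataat
Tfrc site 2: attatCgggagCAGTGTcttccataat
Tfrc site 3: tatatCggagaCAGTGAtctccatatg
Tfrc site 4: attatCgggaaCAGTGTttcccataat
The same search found an element in the 5′ UTR of 6 of 10380 analysed genes with such a region (0.0578%) and in the 3′ UTR of 12 of 10397 (0.115%). UTRs differ in length, so these shares are a description. A match is no proof of a working site. No match, as for Slc11a2, says only that these letters are not there. Elements of another form may have been missed, in Tfrc and Slc11a2 as in any gene.

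The targeted gene came first as a check of the labels. The authors' deposited table gave Nfe2l2 a value of -1.99 (adjusted p = 0.126), with a mean over the libraries of 189 CPM. All fold changes here are log2 of cKO over WT, turned round from the deposited sign. A gene is called where the authors' false discovery rate (FDR), the Benjamini-Hochberg adjusted p over all 10664 genes, is under 0.05. By this rule 2.61% of all genes were called, 2.15% as lower and 0.459% as higher in cKO. The defining keratinocyte genes Krt5, Krt14, Itga6 (which encodes CD49f) and Trp63 were 4 of 4 analysed, with values between -0.49 and 0.20 and mean levels of 467 to 1198 CPM in the authors' deposited table. Endothelial, fibroblast and melanocyte markers were lower in cKO, with 4 of 5, 4 of 4 and 3 of 3 analysed genes called. The called genes were Cdh5, Flt1, Kdr and Emcn for endothelium, Col1a1, Col1a2, Col3a1 and Dcn for fibroblasts and Dct, Tyrp1 and Mlana for melanocytes. Implied levels were worked back from fold change and mean level, with the genotypes weighted alike. Summed over all analysed markers of each type, they were 14.5, 102 and 20.7 CPM in cKO, against 129, 1016 and 108 CPM in WT. Of the 5 neutrophil markers looked up, only S100a8 and S100a9 were analysed, and S100a9 was called lower. Csf3r, Ly6g and Mpo were not analysed here. Whether the S100a8 and S100a9 reads came from neutrophils was not tested. In such bulk samples, fewer cells of a type and less RNA per cell cannot be told apart.

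Of the 10 iron and heme genes 1 was called, against 2.61% of all genes. That gene was Hamp, the hepcidin gene, higher in cKO by 8.24 on the log2 scale. The other 9 lay between -1.67 (Ftl1) and 1.18 (Blvrb), with a median of -0.03 beside 0.004 for all genes. Of those 9 genes 5 had lower and 4 higher values. 5 of the 10 lay within 0.2 of zero, as did 29.9% of all genes. The files analysed hold no value per sample, so no spread between libraries can be given for any of these genes.

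**Figure D1:**
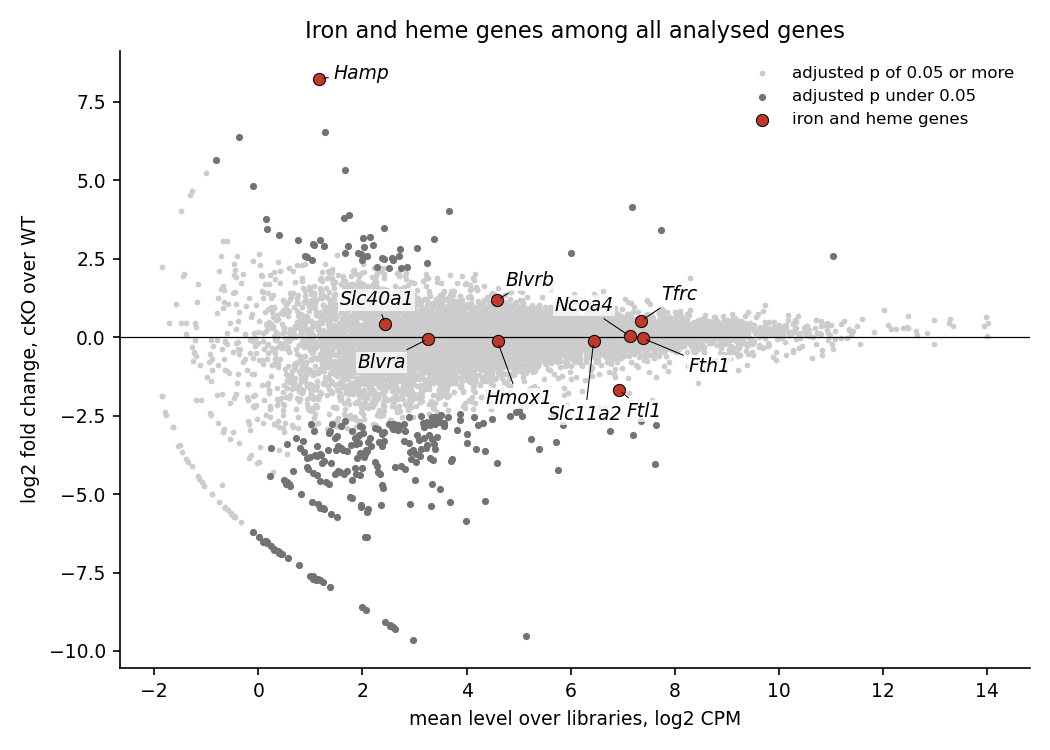
Log2 fold change of cKO over WT (vertical axis) against the mean level in log2 CPM (horizontal axis) for 10664 genes from the authors' deposited table. Dark grey points are the 278 genes with an adjusted p under 0.05, light grey points the others, and red points the 10 iron and heme genes. Hamp is the highest point of the plot at 8.24, and the other 9 lie among the uncalled genes.

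For 9 of the 10 genes, a pair of derived values stand beside the fold change below, and for Hamp only the first of them is given. The first is the level implied for each genotype by the deposited fold change and mean level, under the assumption of equal weight for cKO and WT in that mean. Weights by the 2 cKO and 3 WT libraries, a setting added after seeing the data, move these levels but not the fold change. For Ftl1 they would give 52.5 CPM in cKO and 167 CPM in WT. The second is a 95% interval from the standard error that the deposited p-values imply for genes within 0.5 log2 CPM of the gene's level. This interval rests on the authors' p-values and not on a spread seen between samples of that gene. It is not adjusted for the number of genes. Levels are not corrected for gene length in any way stated in the sources, so they are set side by side only within a gene.

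Ftl1 (ENSMUSG00000050708, chr7:45457944-45459884, minus strand, mm10) encodes ferritin light chain, which helps iron to mineralise inside the shell. The implied levels of this storage gene were 58.0 CPM in cKO, against 184 CPM in WT. The authors' deposited table gave it a fold change of -1.67 on the log2 scale (p = 0.0171, adjusted p = 0.304), averaging 121 CPM, so it was not called. The 95% interval ran from -2.89 to -0.44. It leaves out zero but is not adjusted for the number of genes, and the gene was picked with its value known. Of all genes, 591 had a lower value than Ftl1. Among the 1167 genes within 0.5 log2 CPM of its level, 3 were called lower, and the smallest of these falls was -2.67 in the authors' deposited table.

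Ftl1 has near-identical copies in the mouse genome, and the sources used here do not state how shared reads were divided between them. The copy Ftl1-ps1 (ENSMUSG00000062382, chr13:74399694-74407346, plus strand) is annotated as a protein-coding gene, and a matching hairpin was found in its 5′ UTR too. The authors' deposited table gave it -0.95 (adjusted p = 1), averaging 5.23 CPM. Both copies thus had lower values in cKO, neither of them called.

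Fth1 (ENSMUSG00000024661, chr19:9980598-9985098, plus strand) encodes ferritin heavy chain, the ferroxidase that oxidises iron for storage. The implied levels were 165 CPM in cKO and 169 CPM in WT. The authors' deposited table gave a log2 fold change of -0.03 (adjusted p = 1), and the 95% interval of -1.26 to 1.19 leaves changes of about that size undecided. The difference between the chains was not tested, and their intervals overlap. Ncoa4 (ENSMUSG00000056234, chr14:32159865-32179855, plus strand), the cargo receptor that carries ferritin to the lysosome, had 142 CPM in cKO and 139 CPM in WT by the same estimate. Its value was 0.04 in the authors' deposited table, with a 95% interval of -1.19 to 1.26.

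Heme breakdown showed values on both sides of zero. Hmox1 (ENSMUSG00000005413, chr8:75093621-75100589, plus strand) encodes heme oxygenase 1, the inducible enzyme that opens the heme ring. Hmox1 had implied levels of 23.0 CPM in cKO and 25.3 CPM in WT. The authors' deposited table gave a log2 fold change of -0.13 (adjusted p = 1), with a 95% interval of -1.49 to 1.22. Among 1759 genes of like level the smallest called fall by the authors' deposited table was -2.36. Blvra (ENSMUSG00000001999, chr2:127070665-127097084, plus strand), the reductase that turns biliverdin into bilirubin, had 9.48 CPM in cKO and 9.79 CPM in WT by the same estimate. Its value was -0.05 in the authors' deposited table, with a 95% interval of -1.43 to 1.34.

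Blvrb (ENSMUSG00000040466, chr7:27447978-27466144, plus strand) encodes the other biliverdin reductase, also known as flavin reductase, which is abundant in red cells. By the same estimate it had 33.3 CPM in cKO, against 14.7 CPM in WT. In the authors' deposited table its log2 fold change was 1.18 (p = 0.0617, adjusted p = 0.670), and 357 genes had a higher value. The 95% interval of -0.17 to 2.54 includes zero, and its difference from Blvra was not tested. Among the 1765 genes within 0.5 log2 CPM of the level of Blvrb, 12 were called lower and 0 higher. The red cell genes among the markers had values in the same direction: Hba-a2 and Hba-a1 had 1.26 and 0.90 in the authors' deposited table, neither called. These were 2 of the 8 erythroid markers looked up, the other 6 were not analysed here, and their summed implied level was 10.2 CPM in cKO and 4.63 CPM in WT. Their part in the value of Blvrb was not tested.

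Neither gene of iron uptake was called. Tfrc (ENSMUSG00000022797, chr16:32608920-32632794, plus strand) encodes transferrin receptor 1, whose mRNA is the one with 4 hairpins above. Tfrc had implied levels of 191 CPM in cKO and 134 CPM in WT. The authors' deposited table gave a log2 fold change of 0.51 (adjusted p = 1), with a 95% interval of -0.71 to 1.74. Slc11a2 (ENSMUSG00000023030, chr15:100387898-100425072, minus strand) encodes DMT1, the transporter that passes iron out of the endosome into the cytosol. It had 83.4 CPM in cKO and 90.5 CPM in WT by the same estimate. Its value was -0.12 in the authors' deposited table, with a 95% interval of -1.35 to 1.11. It overlaps the gene model Gm5475 on the other strand, and the sources used here do not state whether counting used strand.

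Iron export rests on Slc40a1 (ENSMUSG00000025993, chr1:45908068-45926523, minus strand), which encodes ferroportin, the receptor of hepcidin. Slc40a1 had implied levels of 6.21 CPM in cKO and 4.63 CPM in WT. In the authors' deposited table its value was 0.42 (adjusted p = 1), and the 95% interval ran from -1.01 to 1.86. Among 1429 genes of like level, the smallest called rise by the authors' deposited table was 2.20. Macrophages are known for high ferroportin, and 1 of the 11 macrophage markers looked up was analysed here. That gene, Cd68, averaged 1.87 CPM and had 1.46 (adjusted p = 0.567) by the authors' deposited table.

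**Figure D2:**
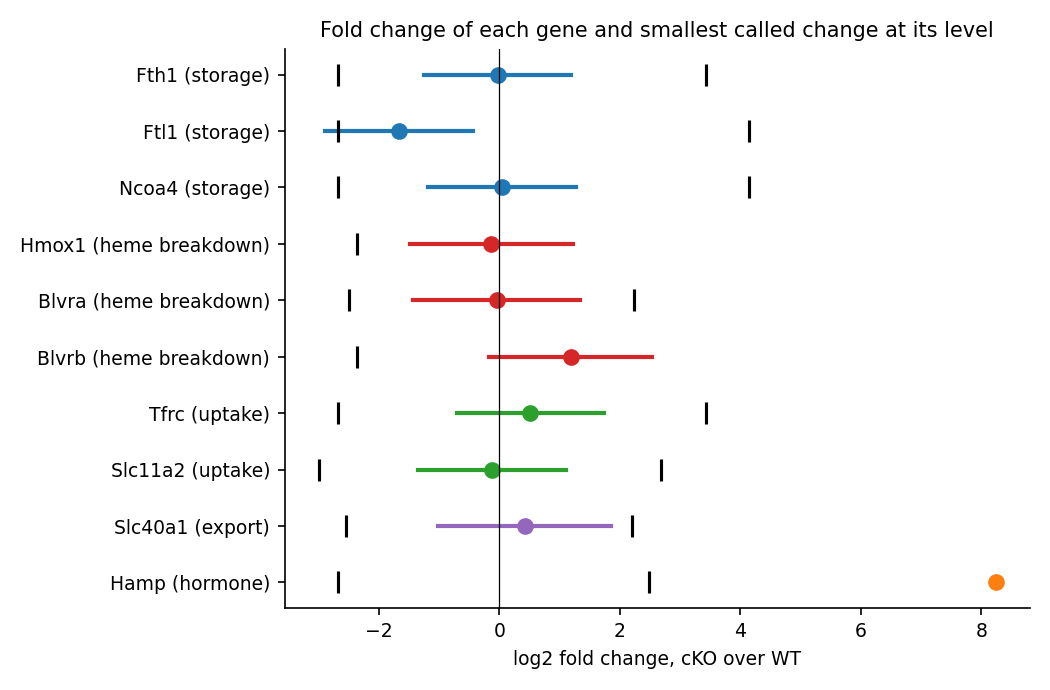
Log2 fold change of cKO over WT for each of the 10 genes (points, coloured by role), with the back-calculated 95% interval (horizontal lines, not drawn for Hamp). Black ticks mark the smallest called fall and the smallest called rise among genes within 0.5 log2 CPM of each gene's level, where there was one. Hamp at 8.24 lies beyond its tick for a rise, and none of the other 9 points lies beyond a tick. Hmox1 and Blvrb have no tick for a rise, since no gene at their level was called higher.

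Hamp (ENSMUSG00000050440, chr7:30942368-30944032, minus strand) encodes hepcidin, the peptide hormone that makes cells take ferroportin in and degrade it. Hamp had an implied level of 4.48 CPM in cKO, against 0.0148 CPM in WT. The authors' deposited table gave a log2 fold change of 8.24 (p = 2.41e-10, adjusted p = 6.42e-07), averaging 2.25 CPM. No other of the 10664 genes had a higher fold change, and none of the 5365 genes with a higher value in cKO had a smaller p-value. It ranked 4 by p-value over all genes. These ranks hold among genes that passed the authors' filter, whose rule is not stated in the sources used here. At 0.0148 CPM in WT, Hamp would pass a filter on level only through cKO. Its ranks are thus a description and support nothing further. Whether each of the cKO libraries held Hamp reads cannot be read from these values.

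The size of this fold change depends on a WT level near zero. Genes are said here to be near the floor where either genotype has an implied level under 0.05 CPM. Among called genes, 3 were near the floor in WT, namely Hamp, Adgrg7 and AU018091, with 0.0148, 0.0182 and 0.0221 CPM there. Another 34 were near the floor in cKO, with implied levels of 0.0195 to 0.0252 CPM in cKO. Among the 607 genes within 0.5 log2 CPM of Hamp, the next highest fold changes were 6.53 (Thumpd2) and 5.32 (6430562O15Rik) in the authors' deposited table. The most lowered gene there, Rnf125, had -7.95 (adjusted p = 0.000163) by the authors' deposited table. The fold of Hamp is thus a value from the authors' processing of a gene near the floor and not a measured ratio. With the genotypes weighted by their 2 and 3 libraries, a setting added after seeing the data, the implied levels were 5.60 CPM in cKO and 0.0185 CPM in WT.

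At such levels the deposited p-values may not stand for the spread between samples of each gene. Of 1619 genes under 5 CPM with a p-value below 1, 315 had exactly the same p-value as another of these genes. Cxcl3 and Itm2a, both close to Hamp in level, shared p = 1.15e-06 in the authors' deposited table although their fold changes were -7.75 and -7.74. Among the 278 called genes, 21 shared a p-value with another called gene. The share among genes at 5 CPM or more was not counted, so shared p-values are not shown to be particular to low levels. No value per sample was analysed, so the small p-value of Hamp does not show that the cKO libraries were alike.

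**Figure D3:**
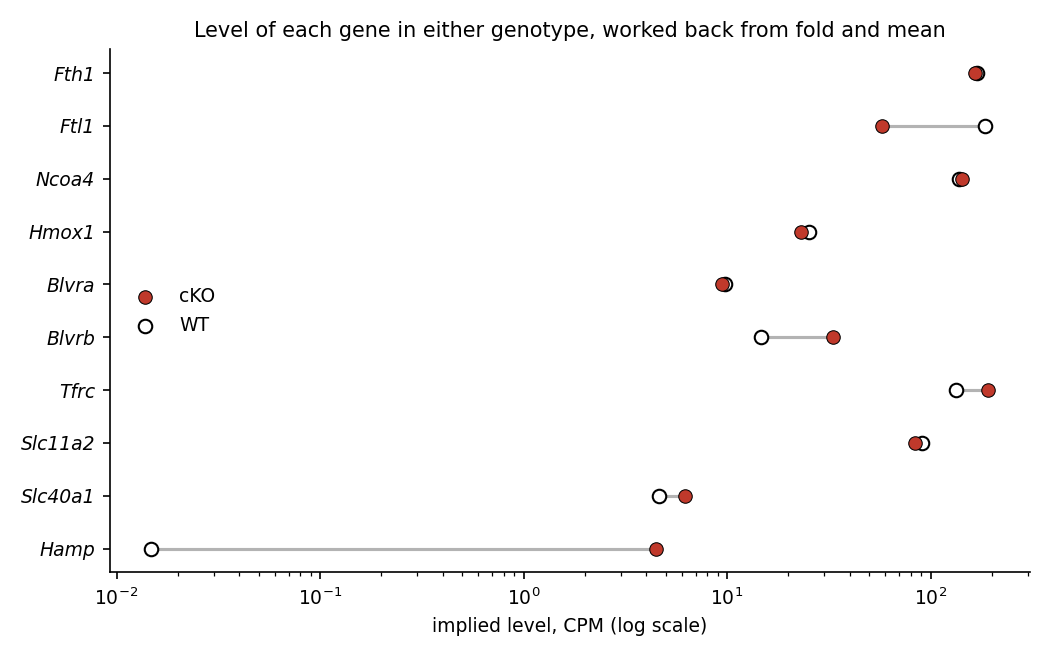
Level of each of the 10 genes in cKO (red) and WT (white) in CPM on a log scale, worked back from the authors' fold change and mean level with both genotypes weighted alike. Positions are to be read within a row, since levels are not set per gene length. Hamp spans 4.48 CPM in cKO and 0.0148 CPM in WT, Ftl1 58.0 CPM in cKO and 184 CPM in WT, and Blvrb 33.3 CPM in cKO and 14.7 CPM in WT.

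The upstream 250 bases of Hamp are shown because this is the gene that was called. In liver cells its promoter is known to respond to bone morphogenetic proteins through SMAD binding and to interleukin 6 through STAT3. The sequence is from RefSeq (GRCm38.p6, chr7:30944030-30944279, minus strand), written 5′ to 3′ and ending at the base before the RefSeq start. Capitals mark the matches of 2 searched motifs, GGCGCC at bases -109 to -104 and TTCNNNGAA at bases -97 to -89, counted back from the start. Both motifs read the same on either strand, and the matches do not overlap.
Hamp: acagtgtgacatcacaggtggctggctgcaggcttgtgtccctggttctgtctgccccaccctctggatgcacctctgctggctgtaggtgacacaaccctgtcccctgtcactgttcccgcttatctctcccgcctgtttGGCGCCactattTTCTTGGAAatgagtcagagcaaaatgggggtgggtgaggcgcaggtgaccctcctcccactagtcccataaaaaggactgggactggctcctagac
Of 32851 RefSeq windows of this length, 9.59% held GGCGCC, 7.02% held TTCNNNGAA and 0.368% held both. The antioxidant response element core TGACNNNGC, searched on both strands, was not in this window and was in 10.2% of all windows. Of the 10 genes 7 had a window in the table, 12 windows in all, and Hmox1, Slc11a2 and Slc40a1 had none. Besides Hamp, Tfrc held GGCGCC, and Blvra and Ncoa4 held TGACNNNGC, Ncoa4 in its window 3 only. The shares above are per window and some genes have several, so hits per gene are not to be set against them. Where there was no match, this says only that these letters are not in the window.

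Genes beside Hamp on chromosome 7 were looked at for a change over the whole locus. Usf2, which lies 1216 bases away on the same strand, had -0.69 in the authors' deposited table, and Lsr, 13738 bases away, had 0.44. Fxyd5, 88690 bases away, had -2.90 (adjusted p = 0.0523) there, averaging 3.27 CPM. None of these 3 genes was called. Hamp2, the neighbouring and closely related copy of the hepcidin gene, was not analysed here, so reads shared between the copies remain uncertain for Hamp. The same holds for the antisense RNA gene model Gm44662, which overlaps Hamp and was not analysed here. Liver contributes most hepcidin in the body, and of 8 hepatocyte markers looked up, from Alb to Cyp2e1, 0 were analysed here.

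A wider list of 73 genes by textbook role, of which 55 were analysed, gave the surroundings. Of these 55 genes 2 were called lower and 0 higher, beside 2.15% and 0.459% of all genes. Their values were lower in 27 and higher in 28, with a median of 0.01 beside 0.004 for all genes. The called genes were Cp and Il6. Both calls were lost under the Benjamini-Yekutieli adjustment and at a threshold of 0.01, where 1.09% and 1.43% of all genes were called.

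Among the genes that control hepcidin, 1 of 17 analysed was called, beside 2.61% of all genes. This call describes 1 gene and not the group. Il6 encodes interleukin 6, the cytokine that induces hepcidin in liver. By the authors' deposited table its level fell by 2.81 (log2; adjusted p = 0.0199), averaging 11.9 CPM. Its implied level was 2.95 CPM in cKO, against 20.8 CPM in WT. Hamp and Il6 thus moved in opposite directions in the same comparison. Id1, a target gene of bone morphogenetic proteins, had -1.002, and their receptor gene Bmpr2 had 0.38 in the authors' deposited table, neither called. The group's median was -0.01, with 10 lower and 7 higher values. The part of the endothelial and fibroblast markers, lower in cKO as given above, in the change of Il6 was not tested.

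Of the 3 genes of iron export and its ferroxidases, 1 was called, beside 2.61% of all genes. With so few genes this is no result about the group. Cp encodes ceruloplasmin, the copper enzyme that oxidises iron as it leaves through ferroportin. Its level fell by 3.67 (log2; adjusted p = 0.0336) in the authors' deposited table, averaging 1.84 CPM. Its implied level was 0.269 CPM in cKO, against 3.42 CPM in WT. The other ferroxidase genes were Hephl1 with 0.78 and Heph with -0.16 in the authors' deposited table, neither called. Cp lies under 5 CPM, where 315 of 1619 genes with a p-value below 1 shared it with another of these genes. Whether Cp was among them is not given here. Fibroblast markers, with a median of -3.58, had values like that of Cp. Their part in the change of Cp was not tested.

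In none of the other 7 groups was a gene called. In iron uptake, the metalloreductase gene Steap2 had the smallest p, with -1.85 (adjusted p = 0.353) by the authors' deposited table. Slc39a8, a zinc and iron transporter, had 0.01, and the endolysosomal channel gene Mcoln1 had 0.49 there. Pcbp1 and Pcbp2, whose proteins hand iron to ferritin, had 0.03 and -0.19 in the authors' deposited table. Fbxl5, which marks iron regulatory proteins for degradation, had 0.62, and Ireb2, which encodes iron regulatory protein 2, had -0.31 in the same source.

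In heme transport, Abcg2, an exporter of porphyrins, had -2.08 (adjusted p = 0.208) by the authors' deposited table. The heme transporter gene Slc48a1 and the heme-binding Pgrmc1 had 0.34 and 0.16 there. In heme synthesis, 3 of 9 genes had lower and 6 higher values, with a median of 0.06. Uros, an enzyme of this pathway, had 1.30 (adjusted p = 0.584) in the authors' deposited table. Fech, which inserts iron into the ring, had 0.17 there. Bach1, the heme-sensing repressor of Hmox1, had 0.43, and Por, which passes electrons to heme oxygenase, had -0.37 in the authors' deposited table. Of the mitochondrial iron and iron-sulfur genes, Nfs1, the cysteine desulfurase, had 0.90 and Cisd2 -0.10 in the authors' deposited table.

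**Figure D4:**
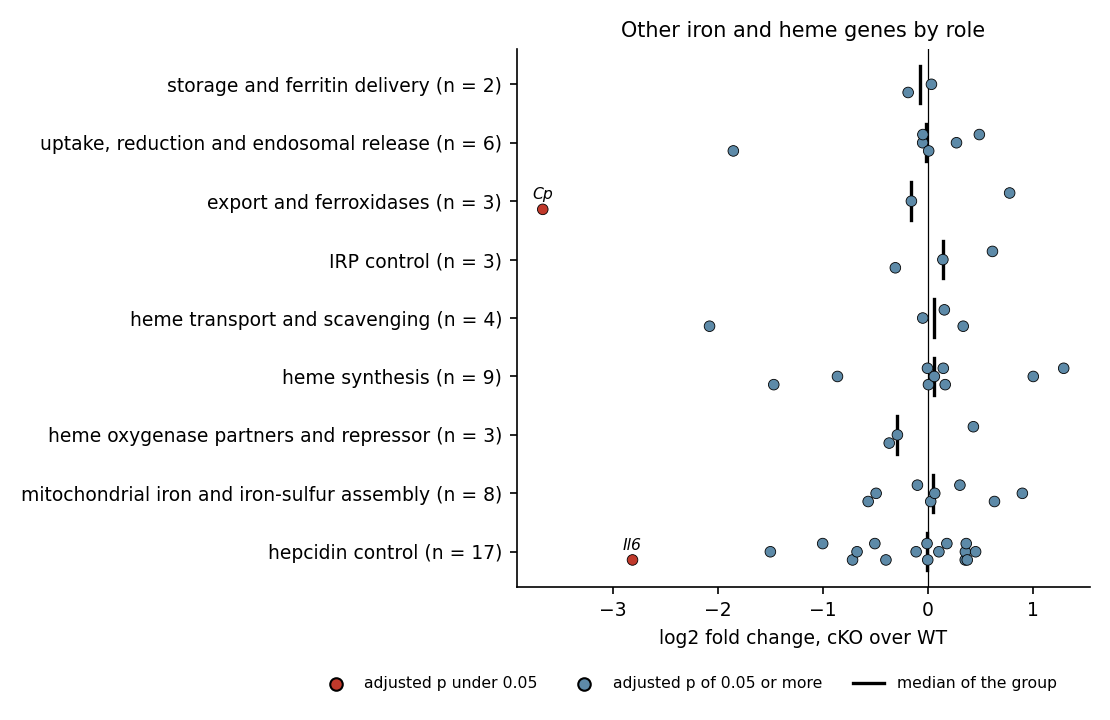
Log2 fold change of cKO over WT from the authors' deposited table for 55 other iron and heme genes (1 point a gene, shifted up or down within a row so that points can be told apart), grouped by role with the median as a black bar. Red points, Cp at -3.67 and Il6 at -2.81, had an adjusted p under 0.05, and the medians lie between -0.29 and 0.14.

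Set against the hairpins, the iron genes with a 5′ UTR element had values on both sides of zero. Ftl1 and its copy Ftl1-ps1 had -1.67 and -0.95, Fth1 had -0.03 and Slc40a1 had 0.42 in the authors' deposited table. Tfrc, with elements in its 3′ UTR, had 0.51 there. None of these genes was called, and protein levels were not measured.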

How the data were processed

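Keratinocytes sorted from day 5 wounds of 2 cKO and 3 WT samples were profiled by RNA-seq. Per the submitters' processing notes, reads were handled with Trimmomatic 0.35, STAR 2.6.0c and RSEM on mm10. Per the file headers, the authors deposited for each gene of their comparison the p-value and FDR, the log2 fold change and the log2 CPM averaged over libraries. TPM, a filter and a pseudocount appear in the table's title; the tool behind the comparison and the depth of the libraries are not given in the sources used here. Positive deposited log2 values were read as higher in WT, since the authors' notes beside 2 negative entries describe them as higher in the knockout or lower in WT, and all were turned round. The deposited false discovery rate equalled the Benjamini-Hochberg adjustment of the deposited p-value over 10664 genes within 7.17e-15.

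No value per sample was analysed, so the limma fit planned for that case was not run. Implied levels assume equal weight of the genotypes. Implied standard errors are the absolute fold change divided by the normal quantile of the p-value, taken as the median over genes within 0.5 log2 CPM with fold changes of 0.5 to 3. The labels do not say that each sample was a separate animal, so p-values may measure technical spread. Members and lists were chosen with earlier results of these data known. Named genes were the members, Nfe2l2 and, of the wider list, the called genes and in each group the 2 with the smallest p and the 1 with the highest level, and the called markers of other cell types. Some genes that this rule selects are not reported here. Heph, uncalled markers, Ftl1-ps1 and the neighbours and like-level genes of Hamp were named after their values were seen. Positions are from GENCODE vM21. Values were computed in Python 3.11.15 with pandas 2.3.3, NumPy 2.4.6 and SciPy 1.17.1, and plots drawn with matplotlib 3.10.9.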

Additional observations from a re-analysis of the deposited data

How the results depend on the processing

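Hamp, the 1 called gene of the 10, stayed called under the Benjamini-Yekutieli adjustment, the empirical null, and without X, Y and other-cell markers. Given its deposited values, none of these settings could end this call. Nor could a threshold of 0.01 or a log2 fold change of at least 1. All of them thus say nothing about its stability. With a level of 5 CPM or more, and with near-floor genes left out, 0 of the 9 genes left were called, because Hamp itself was removed. Its adjusted p was 8.85e-12 under the empirical null and 6.33e-06 under the Benjamini-Yekutieli adjustment. Over these adjustments, the level filter and the removal of near-floor genes, the adjusted p of Ftl1 ranged from 0.0536 to 1 and that of Blvrb from 0.218 to 1. Of the wider list, 2 genes were called as reported, Cp and Il6, beside 2.61% of all genes. With a level of 5 CPM or more, 1 (Il6) was called, beside 1.16% of the genes tested. Under the Benjamini-Yekutieli adjustment 0 were called (1.09% of all genes), and 0 at a threshold of 0.01 (1.43%). The empirical null gave 3, with Abcg2 added, beside 5.56% of all genes. No paired analysis was possible because the deposited comparison carries no value per sample, and for the same reason no library could be left out.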
